A study of Mus musculus with 6 samples.

Results

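Cholecystokinin, the product of Cck, and 9 other peptides of gut and nerve were followed in pancreatic islets of 2 obese mouse strains, NZO and B6-ob/ob. Cck was chosen by its processed intensity on these arrays, for a large excess in NZO, so its values are a description and carry no test. Gast, Npy, Vip, Gal, Nts, Sct, Gip, Penk and Adcyap1 were taken for context. The 10 genes have 12 of the 41174 non-control probes of the array. Of these, 10 probes carry the name of a listed gene in the scanner files, and the 2 probes of Penk stand there as Penk1 and were found through their accession. Tests took only probes that stood well above background, by the scanner's own flag, on 3 or more of the 6 arrays, which 8 probes of 7 genes did.

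The islets came from male New Zealand Obese mice (NZO/HiBomDife, labelled diabetes-prone) and male B6-ob/ob mice (C57BL/6.V-Lepob/ob, labelled diabetes-resistant), which lack functional leptin. Both strains had been fed fat with no carbohydrate until 18 weeks old and then received carbohydrate, and islets were taken 48 h later. There are 3 one-colour Agilent arrays per strain, numbered 10, 11 and 12 for NZO and 4, 5 and 6 for B6-ob/ob. Whether a sample was a single animal or several is not given in the labels, and a p-value here covers only the scatter among samples, possibly technical. No islets from before the change of diet were analysed here, and each value compares the strains at a single time.

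Peptide hormones and neuropeptides are made as longer precursors, cut and trimmed in secretory granules, and released to act on receptors of the target cell, most of which couple to G proteins. Cholecystokinin is released by endocrine cells of the small intestine after a meal. It contracts the gall bladder and makes pancreatic acinar cells secrete enzymes, and it is also a transmitter of the brain. Its transcript is scarce in islets of lean mice and is known to be induced in islets of obese, leptin-deficient mice. Gastrin, its closest relative, is transcribed in fetal islets, while vasoactive intestinal peptide (Vip), neuropeptide Y (Npy) and galanin (Gal) are best known in islets as peptides of the nerve fibres that enter them.

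The bases upstream of the annotated start are shown for the 2 genes of the cholecystokinin and gastrin family and for the 2 peptide genes that were lower in NZO. They are the 250 bases before the start on the coding strand, from RefSeq on GRCm38.p6, at chr9:121495695-121495944 (minus strand) for Cck, chr11:100334157-100334406 (plus) for Gast, chr10:5638968-5639217 (plus) for Vip and chr6:49822460-49822709 (plus) for Npy. Of the 10 genes, 9 matched an entry of that promoter table. Capitals mark matches to 4 motifs searched on both strands, which are the cAMP response element core TGACG, its variant TGCGTCA, the E box CACGTG and the TATA box TATAAA.
Cck: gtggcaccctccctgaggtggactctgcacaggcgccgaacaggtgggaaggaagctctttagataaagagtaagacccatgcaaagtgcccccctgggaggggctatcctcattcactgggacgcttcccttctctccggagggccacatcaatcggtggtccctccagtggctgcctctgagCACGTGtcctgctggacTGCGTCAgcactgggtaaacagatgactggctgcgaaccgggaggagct
Gast: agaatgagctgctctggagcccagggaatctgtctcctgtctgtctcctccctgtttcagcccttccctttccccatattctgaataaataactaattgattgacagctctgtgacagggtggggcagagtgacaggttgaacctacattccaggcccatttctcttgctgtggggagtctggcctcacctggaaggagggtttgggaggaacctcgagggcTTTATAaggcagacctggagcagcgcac
Vip: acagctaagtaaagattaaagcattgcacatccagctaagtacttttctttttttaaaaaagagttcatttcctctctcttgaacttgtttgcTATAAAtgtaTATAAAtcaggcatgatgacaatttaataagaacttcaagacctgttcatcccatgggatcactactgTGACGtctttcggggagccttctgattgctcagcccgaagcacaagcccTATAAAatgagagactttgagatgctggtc
Npy: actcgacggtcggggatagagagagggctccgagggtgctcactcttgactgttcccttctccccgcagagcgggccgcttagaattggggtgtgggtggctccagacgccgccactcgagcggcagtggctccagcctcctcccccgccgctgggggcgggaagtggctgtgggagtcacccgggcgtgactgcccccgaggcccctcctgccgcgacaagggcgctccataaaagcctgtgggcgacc

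The Cck window holds an E box that begins 66 bases before the start, and a TGCGTCA that begins 49 bases before it and contains the complement of TGACG at 47. The Gast window holds the complement of a TATA box at 28 bases. In the Vip window TGACG begins 79 bases before the start, and TATAAA occurs at 157, 147 and 30 bases. None of the 4 motifs occurs in the Npy window, which says only that these letters are absent from it. Over 32851 promoter windows of the same length, TGACG occurs in 17.8%, TGCGTCA in 1.75%, CACGTG in 6.02% and TATAAA in 12.4%. These matches describe letters and are not measured binding.

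The array reads each transcript through probes of 60 bases, and the following pair is shown because it bears on what the probes can tell apart. The Gast probe (mm9 chr11:100197806-100197865) shares no run longer than 5 bases with a Cck probe, so the 2 relatives are read by unlike letters. The Npy probe covers 3763 bases of the genome (mm9 chr6:49773743-49777505) with its 60 letters, so it crosses at least 1 intron and reads spliced RNA. The Gip probe, with a span of 1222 bases (mm9 chr11:95886745-95887966), likewise crosses at least 1 intron. Exons, introns and UTRs under the remaining probes are not given in the files.
Gast: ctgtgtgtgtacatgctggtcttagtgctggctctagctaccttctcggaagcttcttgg
Npy: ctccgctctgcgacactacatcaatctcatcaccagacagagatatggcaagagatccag

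Levels below are log2 of the processed intensity relative to each array's own 75th percentile over all non-control probes, so 0 is that percentile, and differences are NZO minus B6-ob/ob. Levels of different probes are not compared with each other, because brightness depends on the probe. All signs follow the labels of the scanner files and oppose those of the deposited value table, whose columns each resemble an array that carries the other strain's label. Over probes centred on their mean, a column's correlation was 0.9438 to 0.9708 with that array and -0.633 to -0.402 with the array of its own label. Ifi202b and H2-Ea are silent in mice of B6 origin, as is well known. Both genes stood well above background on 3 of 3 scanner arrays labelled NZO and on 0 of 3 labelled B6-ob/ob. The arrays lie on 3 slides scanned on a single day: NZO 12 alone on slide 1, NZO 10 with B6-ob/ob 4 on slide 2, and NZO 11 with B6-ob/ob 5 and 6 on slide 3. Islet hormones were close in both strains, with differences of 0.07 for Ins1, 0.06 for Ins2, 0.09 for Gcg, 0.17 for Ppy and -0.54 for Sst, which was not called (limma adjusted p = 0.0888).

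Cck, picked for its excess in NZO, was read by 2 probes. The brighter (mm9 chr9:121399031-121399090) gave signals of 22027.1, 17721.5 and 2222.48 on NZO 10, 11 and 12, before scaling. On B6-ob/ob 4, 5 and 6 the signals were 175.632, 85.5044 and 42.965. All 6 were well above background, every NZO array stood above every B6-ob/ob array, and NZO 12 stood apart from the other NZO arrays. On the log2 scale the levels were 5.67, 5.69 and 2.44 in NZO against -1.07, -2.41 and -3.36 in B6-ob/ob. The means were 4.60 ± 1.87 (SD, n = 3) and -2.28 ± 1.15 (SD, n = 3). They differ by 6.88, which is a 117.6-fold difference of the mean log levels, given without a test.

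The spread of Cck within a strain was also wide, 3.25 between the highest and lowest NZO array and 2.29 between the B6-ob/ob arrays. NZO 12, the lowest of its strain, is the array that has slide 1 to itself, so slide and sample cannot be told apart there. Within slide 2 the difference was 6.74, within slide 3 it was 8.58, and with slide as a block it was 7.79. Leaving out each array in turn gave 6.33 to 7.96, the highest without NZO 12.

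The second Cck probe (mm9 chr9:121402514-121402573) was dim. Its signals were 20.06, 12.3 and 2.43 in NZO and 2.58, 2.91 and 2.42 in B6-ob/ob, and it was well above background on NZO 10 alone. NZO 10 and 11 were the brightest at this probe too, while NZO 12 lay among the B6-ob/ob arrays. The excess of Cck therefore rests on 1 probe, and the other gives no usable measure in B6-ob/ob.

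**Figure D1:**
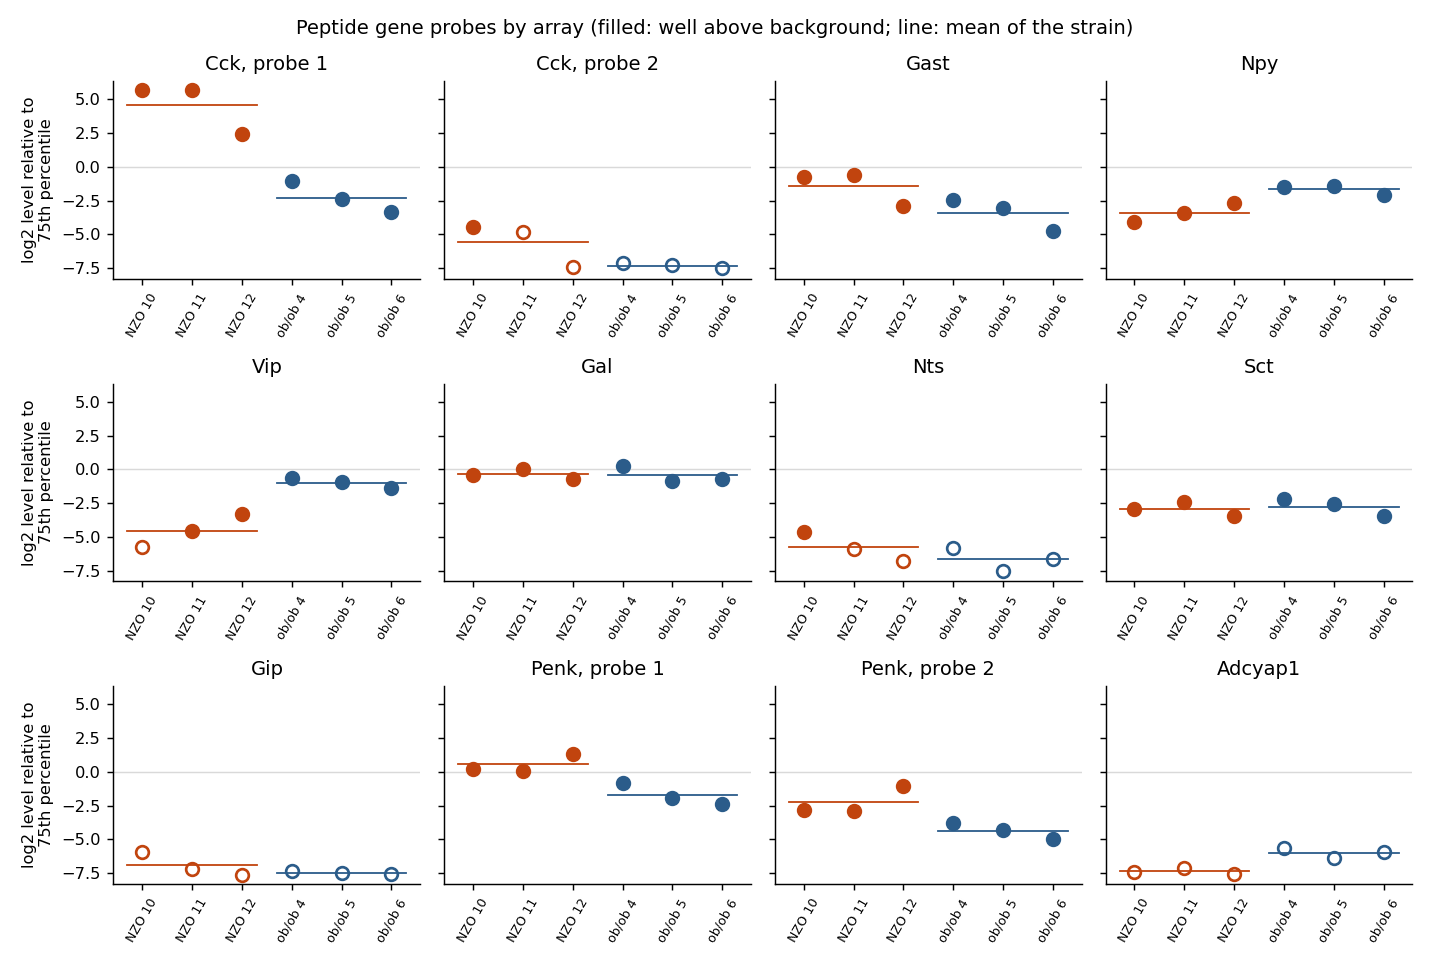
Level of each of the 12 probes (y axis, log2 relative to the array's 75th percentile) on the 6 arrays (x axis), NZO in orange and B6-ob/ob in blue. Filled points were well above background, open points were not, and lines are strain means. The brighter Cck probe lies at 2.44 to 5.69 in NZO and -3.36 to -1.07 in B6-ob/ob, Vip and Npy lie lower in NZO, and Gip and Adcyap1 have no filled point.

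Gast encodes gastrin, which shares its C-terminal end and a receptor with cholecystokinin. Its signals were 260.536, 225.691 and 54.0578 in NZO and 66.3178, 53.6091 and 16.3332 in B6-ob/ob, all well above background. NZO 10 and 11 stood above the rest, and NZO 12 lay within the B6-ob/ob range after scaling, at -2.92 against -2.47, -3.08 and -4.75. The difference was 2.02 (standard error 0.82, 95% interval 0.03 to 4.0) and was not called (limma adjusted p = 0.137 over 16418 genes). It was 1.74 within slide 2, 3.31 within slide 3 and 1.05 after normexp background correction, which adds an offset of 50 to every signal.

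Within each strain, Gast and Sct stood in the same order over the arrays as Cck. Relative to the strain mean, Cck stood at 1.07, 1.09 and -2.16 on NZO 10, 11 and 12, and Gast at 0.69, 0.82 and -1.50. On B6-ob/ob 4, 5 and 6 Cck stood at 1.21, -0.13 and -1.08, and Gast at 0.96, 0.35 and -1.32. Sct, the secretin precursor, stood at -0.02, 0.54 and -0.52 in NZO and 0.54, 0.16 and -0.70 in B6-ob/ob. These 3 genes were lowest on NZO 12 and B6-ob/ob 6 and highest on NZO 11 and B6-ob/ob 4, so the order is not particular to the 2 relatives. Gal was also highest on NZO 11 and B6-ob/ob 4 and lowest in NZO on NZO 12. These are 6 points that share arrays and scaling, and no test was made of them. Vip stood at -1.18, -0.04 and 1.21 on NZO 10, 11 and 12, with NZO 12 highest, but at 0.34, 0.04 and -0.38 in B6-ob/ob, in the order of Cck. Npy stood at -0.68, -0.04 and 0.72 in NZO and at 0.19, 0.23 and -0.42 in B6-ob/ob, lowest on B6-ob/ob 6 as Cck was.

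Among the 5 genes whose profiles came nearest to that of Cck were Cldn11, Ankrd1, Enpp1 and Spink1. Likeness was the root mean square distance between profiles over the 6 arrays, each gene centred on its own mean, among 12669 named genes well above background on all 6 arrays. Cldn11, a tight junction gene, lay at a distance of 0.91, Ankrd1, a stress-induced muscle ankyrin repeat gene, at 0.99, Enpp1, an ectoenzyme gene, at 1.13 and Spink1, a trypsin inhibitor gene of acinar cells, at 1.27. Their differences were 6.68, 5.58, 5.18 and 4.81. In B6-ob/ob, Cldn11 (-4.96, -5.29 and -4.77) and Ankrd1 on arrays 5 and 6 (-4.56 and -4.90) lay near the background limit. The lowest level well above background was -5.60 to -5.33 on the B6-ob/ob arrays, so the sizes for Cldn11 and Ankrd1 are loose. Because the distance is measured over the same arrays that show the excess of Cck, genes with a wide excess in NZO tend to come first. Gast lay at 2.46 and ranked 160 of the 12669, and Penk lay at 2.75 and ranked 354.

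**Figure D2:**
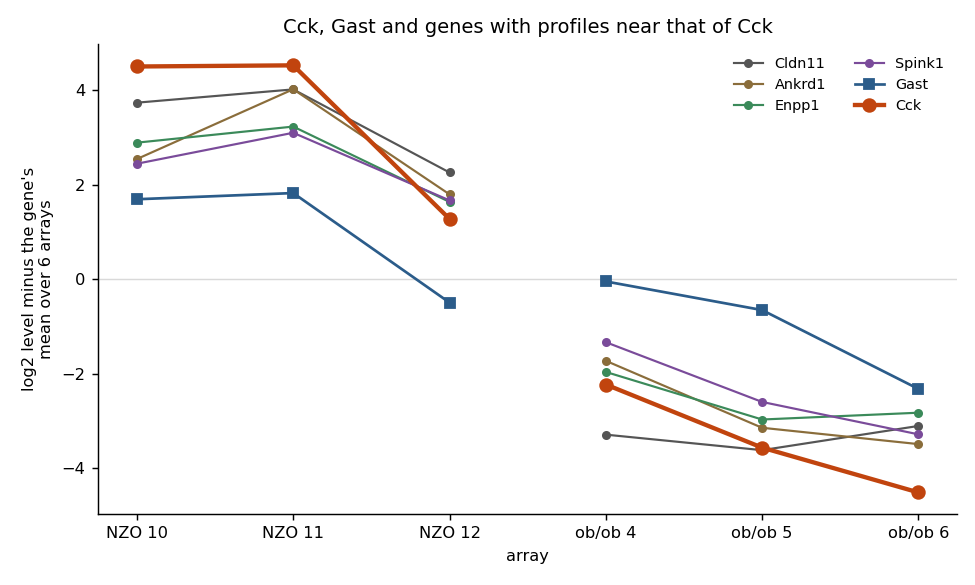
Centred log2 level (y axis, level minus the gene's mean over 6 arrays) of Cck, Gast and 4 of the 5 genes nearest to Cck, on each array (x axis). Lines only join the points of a gene within a strain. Cck and Gast both drop on NZO 12 and B6-ob/ob 6, and the steps of Gast between strains are smaller, with a difference of 2.02 against 6.88.

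Among the 9 genes other than Cck, 6 were tested and 3 were called, against 22.2% of all genes tested. Vip and Npy were lower in NZO (background share 9.0%) and Penk was higher (background share 13.2%). The arrays of the strains did not overlap at these 3 genes, as at 41.1% of all genes tested (NZO above at 20.7% and below at 20.4%). Gast, Gal and Sct were tested and not called, and Nts, Gip and Adcyap1 could not be tested.

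Vip encodes a relaxant peptide of nerve fibres that also raises insulin secretion. Signals were 8.18, 14.3 and 40.6 in NZO and 235.901, 235.921 and 171.053 in B6-ob/ob. Every B6-ob/ob array lay above every NZO array, and NZO 10 was not well above background. The levels were -5.73, -4.59 and -3.33 against -0.64, -0.94 and -1.36, a difference of -3.57 (standard error 0.59, 95% interval -4.99 to -2.14, limma adjusted p = 0.00827). It was -5.08 within slide 2 and -3.43 within slide 3, and the call stood in 16 of 16 alternatives with a test. Counts of alternatives, here and below, leave out the value table read by its own labels, which turned the sign. They include that table with its sign turned, a reading added after seeing the data. The size is less firm than the call, because normexp gave -1.68.

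Npy encodes a transmitter of sympathetic nerves that restrains insulin secretion and is also made in immature beta cells. Its signals were 25.6, 31.5 and 63.7 in NZO and 132.3, 167.0 and 103.7 in B6-ob/ob. The strains did not overlap, and all 6 arrays were well above background. The difference was -1.73 (standard error 0.38, 95% interval -2.65 to -0.82, limma adjusted p = 0.0218), -2.60 within slide 2, -1.68 within slide 3 and -0.92 after normexp. The call was lost within slide 3 (limma adjusted p = 0.0631), without NZO 11 (0.0744), without B6-ob/ob 4 (0.0537) and without B6-ob/ob 5 (0.0847).

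Neuron markers were looked at beside these nerve peptides. Of 18 listed, 12 were tested, 0 were higher and 2 were lower in NZO. The share lower was 16.7% against 9.0% of all genes, and the share called either way was 16.7% against 22.2%. The median difference was -0.37 against -0.03 over all genes tested, and 3 of the 12 differences were positive. The 2 called genes were Nefm, lower by the difference -0.65, and Snap25, by -0.58, the latter also a gene of endocrine cells. The mean level of the 12 markers was -1.21 to -0.73 on NZO arrays and -0.75 to -0.57 on B6-ob/ob arrays. It was highest in NZO on NZO 12, where Vip and Npy were also highest. That is not particular to neuron markers, since acinar (5.69), islet endocrine (6.10) and endothelial (1.93) markers were highest in NZO there too. Markers of Schwann cells and glia, given at the end, went the other way, with 3 of 7 tested higher and 0 lower in NZO, against 13.2% higher over all genes. The other 6 neuron markers were not well above background on enough arrays. In whole islets fewer cells of a type and less RNA per cell cannot be told apart, and the part of nerve fibres in the values of Vip and Npy was not tested.

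Penk, the precursor of the enkephalins, which are opioid peptides, was higher in NZO at both of its probes. At the brighter (mm9 chr4:4060735-4060794) the signals were 506.538, 360.628 and 1022.08 in NZO and 203.325, 118.986 and 85.4 in B6-ob/ob. The strains did not overlap, and NZO 12, lowest for Cck, was highest for Penk. The difference was 2.26 (standard error 0.49, 95% interval 1.08 to 3.44, limma adjusted p = 0.0212). The dimmer probe (mm9 chr4:4061458-4061517) differed by 2.11, with levels of -2.82, -2.88 and -1.07 against -3.81, -4.34 and -4.96. Within slide 2 the brighter probe differed by 1.08 and within slide 3 by 2.22. The call was lost without NZO 10 (limma adjusted p = 0.0503), without NZO 12 (0.0514) and without B6-ob/ob 5 (0.0819).

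Gal, whose peptide restrains insulin secretion, and Sct, the precursor of secretin, which makes duct cells release bicarbonate, were well above background on all 6 arrays and not called. Gal levels were -0.44, 0.01 and -0.72 in NZO and 0.27, -0.86 and -0.71 in B6-ob/ob, a difference of 0.05 (95% interval -0.78 to 0.89, limma adjusted p = 0.933). Sct levels were -2.96, -2.40 and -3.46 against -2.22, -2.61 and -3.46, a difference of -0.18 (95% interval -1.13 to 0.78, limma adjusted p = 0.796). The strains overlapped at both genes, and the intervals leave room for a difference of up to about 1 in either direction. Both genes changed sign between slides, Gal from -0.70 within slide 2 to 0.80 within slide 3 and Sct from -0.74 to 0.63.

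Nts, Gip and Adcyap1 were at or near the background of the array. Nts, the neurotensin precursor, was well above background on NZO 10 alone, with a signal of 17.1 there and 2.45 to 6.44 on the other 5 arrays. Gip, the precursor of the incretin of upper gut K cells, was well above background on no array and gave signals of 2.06 to 6.87. Adcyap1, the precursor of the nerve peptide PACAP, was also well above background on no array. Its signals were 2.17 to 2.48 in NZO and 5.36 to 7.43 in B6-ob/ob, values without a fold because neither strain was well above background.

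**Figure D3:**
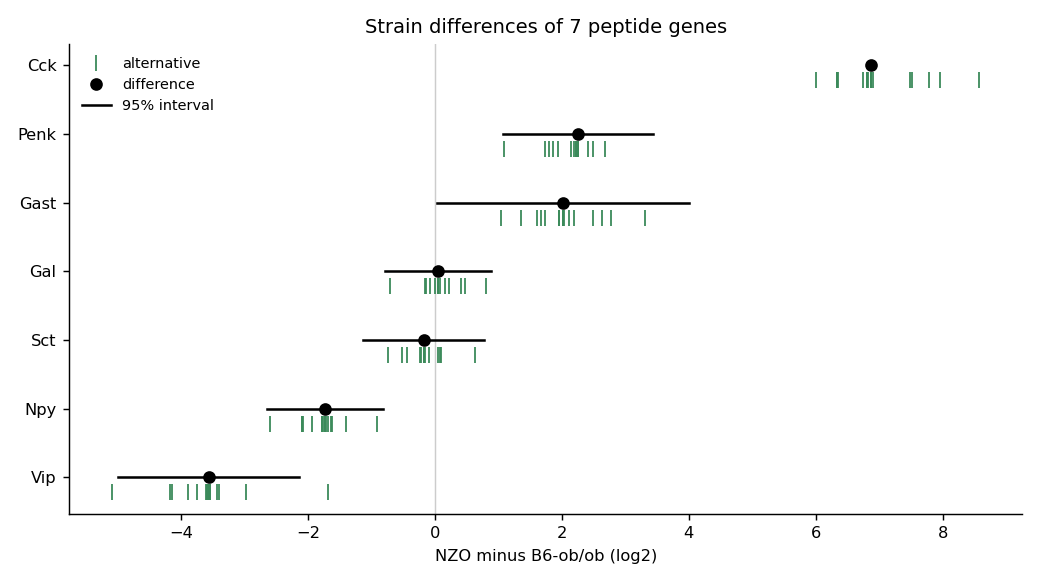
Difference between strains (x axis, NZO minus B6-ob/ob, log2) of the 7 genes that passed the filter. Points are the estimates, bars the 95% intervals from the limma fit of the 6 genes other than Cck, and ticks the values under the alternative settings, leaving out the value table read by its own labels. Cck lies at 6.88, Penk at 2.26, Gast at 2.02, Gal and Sct near 0, Npy at -1.73 and Vip at -3.57, and the ticks of Gal and Sct fall on both sides of 0.

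The receptors of these peptides were mostly too dim to test. Of 21 receptor genes with a probe, 8 were tested, 3 were higher and 1 was lower in NZO, against 13.2% higher and 9.0% lower over all genes. The median difference was -0.12 against -0.03 over all genes tested. Of the 3 higher genes, 2 passed the filter mainly through their NZO arrays. Cckar is the receptor that binds cholecystokinin far better than gastrin. Its levels were -1.45, -1.18 and -1.12 in NZO and -5.28, -4.70 and -5.74 in B6-ob/ob, where it was well above background on 1 of 3 arrays. The 2 strains were far apart, and the NZO arrays lay close together (SD 0.18), unlike those of Cck. The spread in B6-ob/ob, and with it the standard error, is partly that of the background, since 2 of 3 arrays did not stand clear of it. The difference was 3.99 (standard error 0.27, 95% interval 3.33 to 4.65, limma adjusted p = 0.000434), 3.82 within slide 2 and 4.04 within slide 3. Because 2 of 3 B6-ob/ob arrays were not well above background, the size is loose, and normexp gave 1.54. Cckbr, which binds cholecystokinin and gastrin alike, was well above background on a single B6-ob/ob array at 1 of its 2 probes and was not tested.

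Cckar is abundant in acinar cells of the mouse, whose markers differed in the same direction. Of 20 acinar genes tested, 18 were higher in NZO and 0 were lower, against 13.2% higher over all genes, with a median difference of 2.41. Their mean level was 5.04, 5.26 and 5.69 on NZO 10, 11 and 12 and 3.75, 3.02 and 2.25 on B6-ob/ob 4, 5 and 6. It was thus highest on NZO 12, the NZO array with the lowest Cck and Gast, while the B6-ob/ob arrays stood in the same order by it as by both genes. Ductal markers were higher at 6 of 13 genes tested, with Krt19 at 4.37 and Sox9 at 3.62. Their mean level, 1.69, 2.02 and 1.57 in NZO and 0.85, 0.24 and -0.33 in B6-ob/ob, had the array order of Cck and Gast in both strains. That order is not particular to ductal markers. The lists of processing genes (3.731, 3.733 and 3.505, then 3.306, 3.238 and 3.070) and of other peptide precursors, both given below, had it too. Stellate cell and fibroblast markers were higher at 15 of 16 genes tested, lymphocyte markers at 7 of 7 and macrophage markers at 6 of 12. Of 15 lymphocyte markers with a probe, 8 were not tested. Cd2, Cd8b1, Il7r, Pdgfra, Cd163, Cftr and Muc1 were well above background on 3 of 3 NZO and 0 of 3 B6-ob/ob arrays. These markers passed the filter through NZO alone, so their calls add no independent support. The part of these cell types in the differences of Cckar, Cck and the other peptide genes was not tested.

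Adcyap1r1 and Vipr1, which both belong to the receptor family of PACAP and vasoactive intestinal peptide, went opposite ways. Adcyap1r1 levels were -1.79, -1.90 and -1.46 in NZO and -3.52, -3.13 and -3.34 in B6-ob/ob, a difference of 1.62 (limma adjusted p = 0.0017), while a second probe of the gene was well above background on 0 of 6 arrays. Vipr1 levels were -2.15, -2.54 and -2.03 against -1.20, -1.28 and -1.23, a difference of -1.01 (limma adjusted p = 0.0071). Vip itself was lower and Adcyap1 not above background, as given above. Both receptor calls stood in 17 of 17 alternatives.

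Oprm1, the mu opioid receptor, had a called probe with levels of -2.85, -2.92 and -2.88 in NZO and -7.53, -7.68 and -4.11 in B6-ob/ob, where only B6-ob/ob 6 was well above background. The difference of 3.56 (limma adjusted p = 0.0414) is loose, since the other 2 B6-ob/ob arrays were not well above background, and normexp gave 0.78. The call was lost in 8 of 16 alternatives, the leaving out of each NZO array and of B6-ob/ob 4 or 5 among them. That probe starts at 3309054 of mm9 chromosome 10, apart from the gene's other 2 probes at 3516154 and 3557952, which were not well above background on any NZO array. Galr1 (-0.44), Galr3 (0.20), Gipr (-0.60) and Sort1 (-0.74) were tested and not called. The other 3 kept probes of Sort1, the sorting receptor that also binds neurotensin, differed by -2.03, -1.03 and -1.12. Every kept probe of Sort1 was thus lower in NZO. The tested probe, the brightest, had the smallest difference, so the lack of a call holds for that probe only.

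The enzymes that mature these precursors were listed together with partner proteins of the convertases, and 16 of 16 listed genes were tested. Of these, 5 were higher and 0 were lower in NZO, against 13.2% higher and 9.0% lower over all genes. The median difference was 0.23. The prohormone convertases Pcsk1 and Pcsk2, carboxypeptidase E (Cpe) and the amidating enzyme Pam, which take part in making active cholecystokinin, were not called. Pcsk1 differed by -0.43 (limma adjusted p = 0.195), Pcsk2 by 0.02 (0.939), Cpe by 0.32 (0.195) and Pam by -0.94 (0.176). The probes of Pam disagreed, since its other 2 kept probes differed by 0.32 and 0.37 and the mean of the 3 by -0.09. The other kept probe of Pcsk2 differed by -0.56, that of Pcsk1 by -0.67 and that of Cpe by 0.26. Pcsk1 was called lower under quantile normalisation, at -0.50 (limma adjusted p = 0.0211), over a range of 0.00792 to 0.745 in all alternatives.

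Qpct, which closes the N-terminal ring of some peptide hormones, was the widest of the called enzymes. Its levels were -0.50, -0.62 and -0.86 in NZO and -2.86, -3.66 and -3.15 in B6-ob/ob, a difference of 2.57 (limma adjusted p = 0.000946). Pcsk5, a further convertase, differed by 1.91 (limma adjusted p = 0.0127), with 2 of 3 B6-ob/ob arrays well above background, and by 0.55 after normexp. Scg5, the chaperone of the convertase Pcsk2, differed by 1.34 (limma adjusted p = 0.0042), with levels of 7.69, 7.66 and 7.26 against 6.38, 6.29 and 5.94. Cpd, a carboxypeptidase, differed by 0.85 (limma adjusted p = 0.0338), and by 0.21 at its other kept probe, and kept its call in 8 of 17 alternatives. Ctsl, the protease cathepsin L, completes the count with a difference of 0.71 (limma adjusted p = 0.023).

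Other precursors of gut, islet and nerve peptides were listed to set the 10 genes in context. Of 61 listed, 53 had a probe, 33 were tested, 5 were higher and 2 were lower in NZO, with a median difference of 0.09. The share called, 21.2%, lies near the 22.2% of all genes. Ghrl, the precursor of the hunger hormone ghrelin, was lower on every NZO array, at -3.83, -3.14 and -4.49 against -1.18, -0.57 and -0.68, a difference of -3.01 (limma adjusted p = 0.00271), or -1.54 after normexp. Grp, the precursor of gastrin-releasing peptide, a nerve peptide, was lower by the difference -2.53 (limma adjusted p = 0.0225) and was well above background on NZO 12 alone among the NZO arrays. Its call was lost in 4 of 16 alternatives, without NZO 10, NZO 11, B6-ob/ob 4 or B6-ob/ob 5.

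Higher precursors were Edn1, Pnoc, Cort, Nmb and Tac2, the last 3 named because they complete the count. Edn1, the precursor of the vasoconstrictor endothelin, differed by 2.87 (limma adjusted p = 0.029), with B6-ob/ob 4 at -3.32 and the other 2 B6-ob/ob arrays at -5.44 and -5.78. Those 2 were not well above background, so the size is loose, and normexp gave 1.02. Its call was lost in 7 of 16 alternatives. Pnoc, the precursor of the opioid-like peptide nociceptin, stood at -2.90, -2.41 and -2.96 in NZO and -4.65, -4.80 and -5.09 in B6-ob/ob, a difference of 2.09 (limma adjusted p = 0.00125) whose call held in 17 of 17 alternatives, at 0.68 after normexp. Cort, with 1 of 3 B6-ob/ob arrays well above background, differed by 1.45, Nmb by 1.43 and Tac2 by 0.53.

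Transcription factors of the endocrine lineage of gut and pancreas were listed because they set which peptides such cells make. Of 15 tested, 2 were higher and 4 were lower in NZO, against 13.2% higher and 9.0% lower over all genes, with a median difference of -0.19. Neurog3, which starts the endocrine programme, differed by -2.10 (limma adjusted p = 0.0172), at -5.36, -4.63 and -5.56 in NZO against -3.91, -2.43 and -2.91. It was well above background on 2 of 3 NZO arrays, and the call was lost without NZO 10, without NZO 12 and without B6-ob/ob 5. Isl1 differed by -1.05 (limma adjusted p = 0.00896) and kept its call in 17 of 17 alternatives. Foxa2, at -0.88, kept it in 6 of 17 and Sox4, at 0.69, in 8 of 17. Insm1 (-0.54) and Gata6 (0.60) complete the count. Markers of intestinal epithelium were tested at 4 of 12 genes, with a median difference of 0.01. Tff3, a mucosal trefoil peptide gene, was the single call with a difference of 3.02, a share of 25.0% higher against 13.2% of all genes. Alpi (-0.18), Fabp2 (-0.15) and Vil1 (0.17) were not called. The size for Tff3 is loose, because its signal stood well above background in just 1 B6-ob/ob sample, against 3 in NZO.

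**Figure D4:**
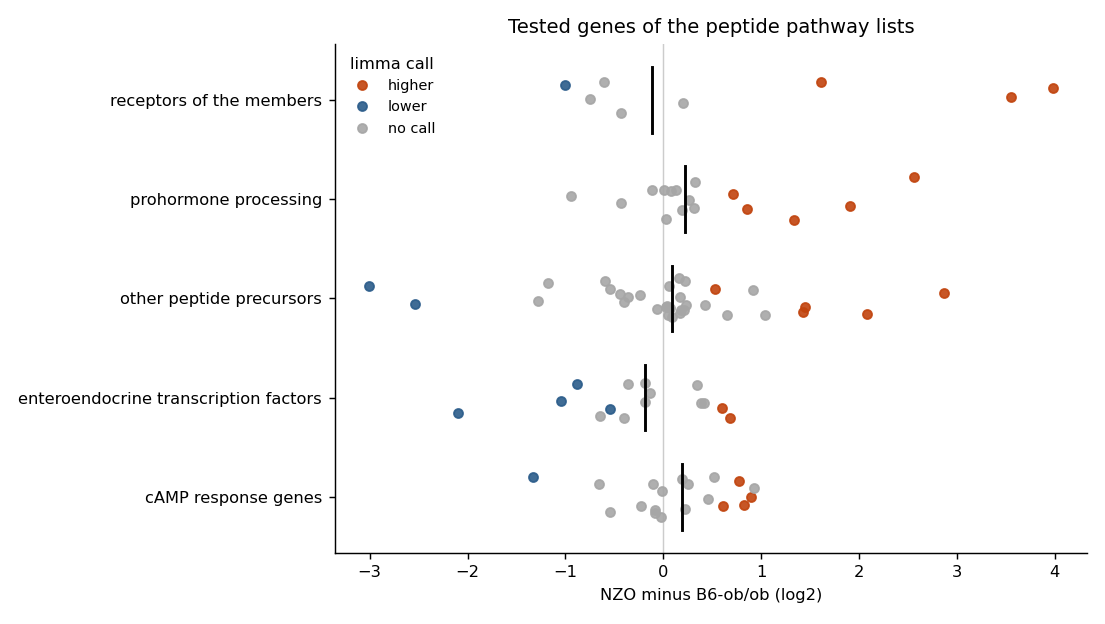
Difference between strains (x axis, NZO minus B6-ob/ob, log2) of each tested gene of 5 lists (y axis), coloured by the limma call at an adjusted p under 0.05, with a bar at the median of each list. Points are spread vertically only to part them. The medians lie between -0.19 and 0.23, and the 2 rightmost points, Cckar and Oprm1, each have 1 of 3 B6-ob/ob arrays well above background.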

How the data were processed

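RNA of 6 islet samples was labelled with Cy3 and hybridised to Agilent arrays, 1 sample per array. The deposited scanner files hold linear spot intensities. Per the file headers they were background-subtracted and detrended with Agilent Feature Extraction, version 10.5.1.1 there and 9.1 by the submitters' processing notes, with no step between arrays. A value table by the authors holds intensities at 33150 probes, of which 33074 matched. It is linear and uncentred, and by its labels its direction opposes that of the scanner files. On the log2 scale Ifi202b stood at 1.12 to 1.16 in its NZO columns and 7.92 to 9.30 in its B6-ob/ob columns. H2-Ea stood at 1.19 to 1.36 and 6.36 to 6.85. Why the labels of the 2 sources differ is not known.

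Flagged spots (61 to 76 per array) were left out and no probe was saturated. Spots of a probe were averaged as log2 intensity, and each array's 75th percentile was subtracted. Per array, 23621 to 24711 of 41174 probes stood well above background, and the number of arrays limits precision. Probes well above background on at least 3 arrays were kept (24628), and the brightest per gene name was tested, 16418 in all. The strains were set against each other in limma 3.58.1 (lmFit, eBayes; R 4.3.3) by a two-sided test, adjusted by Benjamini-Hochberg over all genes, at a threshold of 0.05. The functions were tested on simulated data.

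The members and lists were chosen with earlier results of these data known. Named are every member probe, the 5 genes nearest to Cck, Cckar, Cckbr, Pcsk1, Pcsk2, Cpe, Pam, the islet hormones and up to 4 called genes per list. One gene named by this rule is not reported here. Ifi202b, H2-Ea, Insm1, Gata6, Cort, Nmb, Tac2, Pde4b, Fos, Krt19 and Sox9 were named after their values were seen. The same holds for the called nerve and glia markers, the gut markers and the uncalled receptors. It also holds for Ctsl and the cell markers that passed the filter through NZO alone. Alternatives changed the background step, the scaling, the source of values, the filter, the gene summary, the slide, the weighting of arrays and of the prior, and the set of arrays. Reading the value table with its sign turned was added after seeing the data.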

Additional observations from a re-analysis of the deposited data

How the results depend on the processing

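Vip, Cckar, Adcyap1r1, Vipr1, Qpct, Pcsk5, Scg5, Pnoc, Ghrl and Isl1 kept direction and call in every alternative with a test, apart from the value table read by its own labels. Sizes were less stable. After normexp with an offset, which by its construction shrinks dim differences, Vip was -1.68, Npy -0.92, Gast 1.05, Cckar 1.54, Adcyap1r1 0.86, Oprm1 0.78, Qpct 1.63, Pcsk5 0.55, Ghrl -1.54, Edn1 1.02, Grp -0.86, Pnoc 0.68 and Neurog3 -0.72. The table by its labels turned every called sign. It gave -6.82 for Cck, 3.60 for Vip, 1.77 for Npy, -2.23 for Penk, -3.94 for Cckar, -3.49 for Oprm1, -1.53 for Adcyap1r1, 1.03 for Vipr1, 0.50 for Pcsk1, -2.53 for Qpct, -1.84 for Pcsk5, -1.21 for Scg5, -0.74 for Cpd, 2.94 for Ghrl, -2.78 for Edn1, 2.58 for Grp, -1.80 for Pnoc, 2.15 for Neurog3, 1.00 for Isl1, 0.93 for Foxa2, -0.70 for Sox4, 1.38 for Rgs2, -0.90 for Nr4a2, -0.82 for Sik1 and -0.68 for Junb. The counts of calls under it were 3718 of all genes, 3 peptide genes other than Cck, 5 receptors, 5 processing genes, 7 other precursors, 4 transcription factors and 4 cAMP response genes. With the sign turned the table gave the same counts and 6.82 for Cck.

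Counts that moved by over 1.5 times were as follows. Some settings leave fewer samples or probes, which array weights do not, and the cause was not tested. Of all genes 3643 were called, against 2329 with slide as a fixed block, 1843 within slide 3 and 6923 with array weights. Receptors went from 4 to 2 when probes had to be well above background on all 6 arrays. Processing genes went from 5 to 3 within slide 3 and 9 with weights. Other precursors went from 7 to 4 without a filter, 4 with all 6 arrays required, 3 with the slide block and 13 with weights. Transcription factors went from 6 to 2 with the slide block, 2 within slide 3 and 11 with weights. The cAMP response genes went from 5 to 3 without a filter and 1 within slide 3. The difference of Cck, which is not a count, went from 6.88 to 8.58 within slide 3. Leaving out each array in turn gave 1933 to 3574 genes (lowest without B6-ob/ob 5), 1 to 3 peptide genes other than Cck (1 without B6-ob/ob 5), 3 to 4 receptors, 3 to 5 processing genes, 2 to 7 other precursors, 1 to 6 transcription factors, 2 to 4 cAMP response genes and 6.33 to 7.96 for Cck. Gast was called only with array weights (limma adjusted p = 0.0198, between 0.052 and 0.332 otherwise). Pcsk1 was called under normexp, quantile normalisation, the value table with the sign turned and array weights.

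No paired analysis was possible because the strains share no replicate numbers, and slides were used as blocks instead. Slide 2 holds 1 array per strain and gives values without a test. Probes below background limit Nts, Gip, Adcyap1, Cckbr and the second Cck probe.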

Other observations

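Genes that answer to cAMP, the messenger raised by receptors for PACAP, vasoactive intestinal peptide and other gut peptides, were read as a further list. Of 19 tested, 4 were higher and 1 was lower in NZO, a share of 26.3% called against 22.2% of all genes, with a median difference of 0.19 against -0.03 over all genes. Nr4a2, an orphan nuclear receptor induced by cAMP, differed by 0.89 (limma adjusted p = 0.0104), with levels of 2.25, 2.66 and 2.31 in NZO and 1.57, 1.62 and 1.34 in B6-ob/ob. Sik1, a kinase that holds back CREB coactivators, differed by 0.82, Junb, an immediate early gene, by 0.77 and Pde4b, which breaks down cAMP, by 0.61. Rgs2, a regulator of G protein signals, was lower in NZO by the difference -1.33 (limma adjusted p = 0.00693), at 5.12, 4.49 and 4.74 against 5.85, 6.14 and 6.34. Fos was not called, at -0.10, and its B6-ob/ob arrays ran from 3.04 to 5.60. Within slide 3 a single gene of the list was called, and Junb kept its call in 6 of 17 alternatives.

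Schwann cells and glia ensheath the nerve fibres of islets. Of 7 of their markers tested, 3 were higher in NZO, Ngfr by 1.70, Erbb3 by 1.55 and Sox10 by 1.42, and 0 were lower, against 13.2% higher over all genes. Their mean level was -0.46 to -0.41 on NZO arrays and -1.66 to -1.03 on B6-ob/ob arrays. These 3 genes were named after their values were seen.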
